A study of Nasonia vitripennis with 9 samples.

Results

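GRD, GluCl and Slo are 3 ion channel genes of the parasitoid wasp *Nasonia vitripennis*, and they are 3 of the 15418 genes counted in 9 RNA sequencing libraries of whole male white pupae. They were chosen by row name, with their levels already known to step down from uninjected to water-injected to dsGFP-injected pools. Their levels and fold changes in those comparisons are therefore given as descriptions, with no test. All 3 were among the 11665 genes that passed a filter on low counts, and their lowest count in any library was 400.

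The pools came in 3 groups of 3 libraries, all of the laboratory strain AsymCX cured of Wolbachia, with 5 males per library. The dsGFP group received double-stranded RNA against green fluorescent protein, which has no intended target in the wasp, dissolved with a red food dye in water at a strength of 4 µg/µl. The water group received water and that dye alone, and the uninjected group received no injection. Injected larvae were in their second instar, about 3 days after egg laying, went back to fly hosts in lots of 6 to 8, and were collected as white pupae 5 to 6 days later. One label field calls the material larvae. No age at collection is given for the uninjected pools apart from their stage, and the labels do not say whether pools of a group came from separate cultures, so any p-value measures only the spread between these pools.

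GRD and GluCl belong to the cys-loop family, in which 5 subunits form a pore that a neurotransmitter opens. GRD is named for its likeness to GABA and glycine receptors. In *Drosophila* it pairs with LCCH3 in a cation channel gated by GABA. GluCl is the glutamate-gated chloride channel of invertebrates, an inhibitory channel and the target of avermectin insecticides. Slo, the *Drosophila* slowpoke channel, is the pore subunit of the large-conductance potassium channel opened by calcium and by voltage. It ends action potentials in neurons, and in *Drosophila* muscle expresses it as well.

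Gene totals ranged from 33885222 to 46080606 counts per library, and all 6 injected libraries had fewer counts than any of the 3 uninjected ones. In a principal component analysis of the 500 most variable genes, uninjected 3 lay farthest out on the first component (47.4) and uninjected 2 on the second (46.2), so values are also given without them. The RefSeq table of assembly Nvit_psr_1.1 lists 7 transcripts for GRD, 11 for GluCl and 14 for Slo, which counts per gene do not separate. Gene length is not in the count files, so levels are compared between groups for each gene, never between genes.

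GRD had 12.1, 13.2 and 15.3 CPM (read counts scaled to a common library total with TMM factors) in dsGFP pools 1 to 3 and 17.0, 17.1 and 15.2 CPM in water pools 1 to 3. The uninjected pools 1 to 3 had 18.3, 27.6 and 23.5 CPM. Every uninjected pool was above every injected pool, while dsGFP 3 and water 3 were nearly level. The group means were 13.5 ± 1.62 CPM with dsGFP, 16.4 ± 1.07 CPM with water and 23.2 ± 4.64 CPM uninjected (SD, n = 3 each). On the log2 scale the fitted difference was -0.78 (SE 0.16) for dsGFP against uninjected, -0.50 (SE 0.15) for water against uninjected and -0.28 (SE 0.16) for dsGFP against water. On the CPM scale 69.9% of the gap between the uninjected and the dsGFP mean lay between uninjected and water. This share, like those given below for GluCl and Slo, carries no error and depends on which uninjected libraries are kept. Without uninjected 2 and uninjected 3, the GRD log2 fold change against uninjected was -0.46 with dsGFP and -0.18 with water. In bulk RNA, fewer cells of a type and less RNA per cell cannot be told apart, and this holds for each gene described here.

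GluCl had 19.8, 22.6 and 27.9 CPM in dsGFP pools 1 to 3, against 31.0, 33.9 and 29.2 CPM in water pools 1 to 3. The uninjected pools had 31.5, 44.1 and 28.8 CPM. The dsGFP pools were below all others, and the water pools lay inside the uninjected range. Means were 23.4 ± 4.14 CPM with dsGFP, 31.4 ± 2.34 CPM with water and 34.8 ± 8.21 CPM uninjected (SD, n = 3 each). The fit gave a log2 fold change of -0.57 (SE 0.17) for dsGFP against uninjected, -0.15 (SE 0.17) for water against uninjected and -0.42 (SE 0.17) for dsGFP against water. Of the gap in mean CPM between uninjected and dsGFP, 30.2% lay between uninjected and water. Without uninjected 2, the water against uninjected difference changed sign, to 0.05.

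Slo had 26.3, 27.1 and 35.0 CPM in dsGFP pools 1 to 3 and 32.1, 40.4 and 37.6 CPM in water pools 1 to 3. The uninjected pools 1 to 3 had 36.1, 48.8 and 41.8 CPM. The dsGFP and uninjected pools did not overlap, and the water pools overlapped both. Means were 29.5 ± 4.82 CPM with dsGFP, 36.7 ± 4.26 CPM with water and 42.2 ± 6.33 CPM uninjected (SD, n = 3 each). For this gene the log2 fold change came to -0.52 (SE 0.15) for dsGFP against uninjected, -0.20 (SE 0.15) for water against uninjected and -0.32 (SE 0.15) for dsGFP against water. Of the gap in mean CPM between uninjected and dsGFP, 43.3% lay between uninjected and water.

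**Figure D1:**
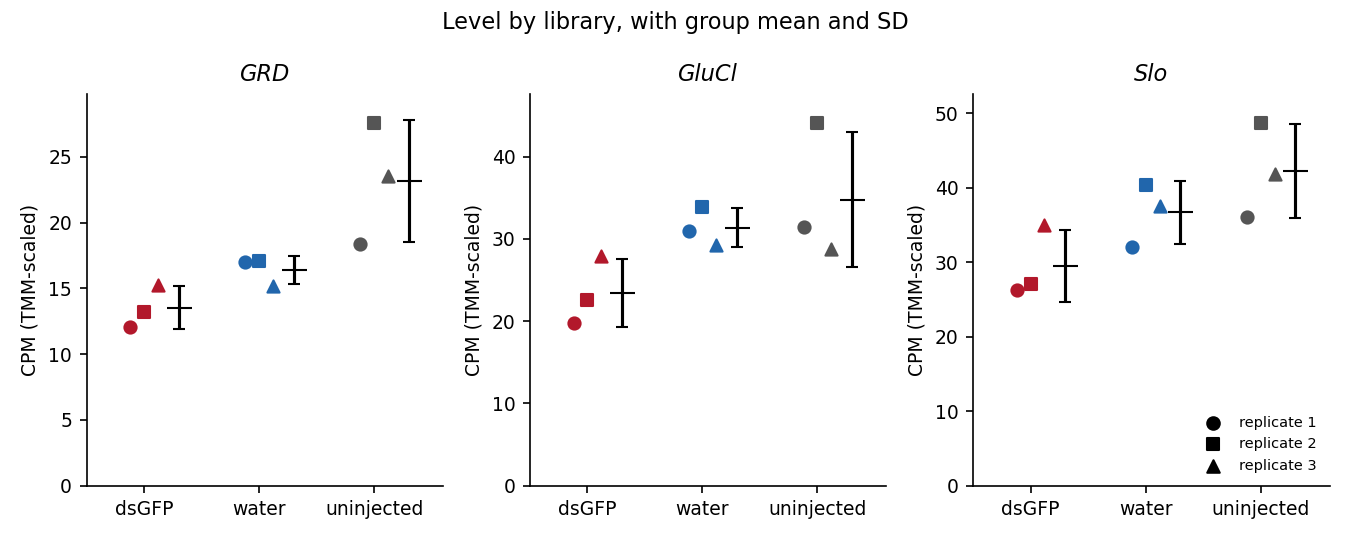
Level of GRD, GluCl and Slo in each library (vertical axis, CPM on TMM-scaled library sizes) by group (horizontal axis), with one symbol shape per replicate number and the group mean ± SD in black (n = 3). For all 3 genes uninjected 2 is the highest library, at 27.6, 44.1 and 48.8 CPM, and dsGFP 1 the lowest, at 12.1, 19.8 and 26.3 CPM.

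All 3 genes had mean levels in the order dsGFP below water below uninjected, an order held by 29.5% of the 11665 genes tested. Between dsGFP and uninjected pools the CPM ranges of all 3 genes did not overlap, with dsGFP lower, as for 13.1% of genes. Between water and uninjected pools 1 of the 3, GRD, had ranges that did not overlap, with water lower, as for 5.79% of genes. Between dsGFP and water pools 1 of the 3, GluCl, had dsGFP below water without overlap, as for 7.57% of genes. Nothing is read from these shares, since the order itself chose the genes. The comparisons of dsGFP and of water with uninjected pools share the 3 uninjected libraries, so their values are set side by side and not as 2 separate observations.

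The order of the 3 genes differed between the steps. GRD had the lowest fold change of the 3 against uninjected pools, both with dsGFP and with water. GluCl had the lowest of the 3 between dsGFP and water (-0.42, against -0.32 for Slo and -0.28 for GRD). With standard errors of 0.15 to 0.17, these gaps between genes were not tested. Between dsGFP and uninjected pools 777 of 11665 genes had a lower log2 fold change than GRD, 1206 a lower one than GluCl and 1348 a lower one than Slo.

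The distance to the uninjected group depended on its libraries. With uninjected 2 and uninjected 3 both left out, only uninjected 1 remained, whose spread was then taken from the other groups, and the GRD log2 fold change was -0.46 (SE 0.17) for dsGFP and -0.18 (SE 0.17) for water, each against uninjected. In the same fit GluCl was at -0.45 (SE 0.18) and -0.03 (SE 0.19), and Slo at -0.32 (SE 0.18) and -0.001 (SE 0.19). Against uninjected 1 alone, the water pools were thus level with it for Slo and within 1 SE of it for GluCl. With uninjected 2 alone left out, GluCl was at -0.37 for dsGFP against uninjected, and Slo was at -0.10 for water against uninjected. Without water 1, Slo was at -0.12 for water against uninjected.

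**Figure D2:**
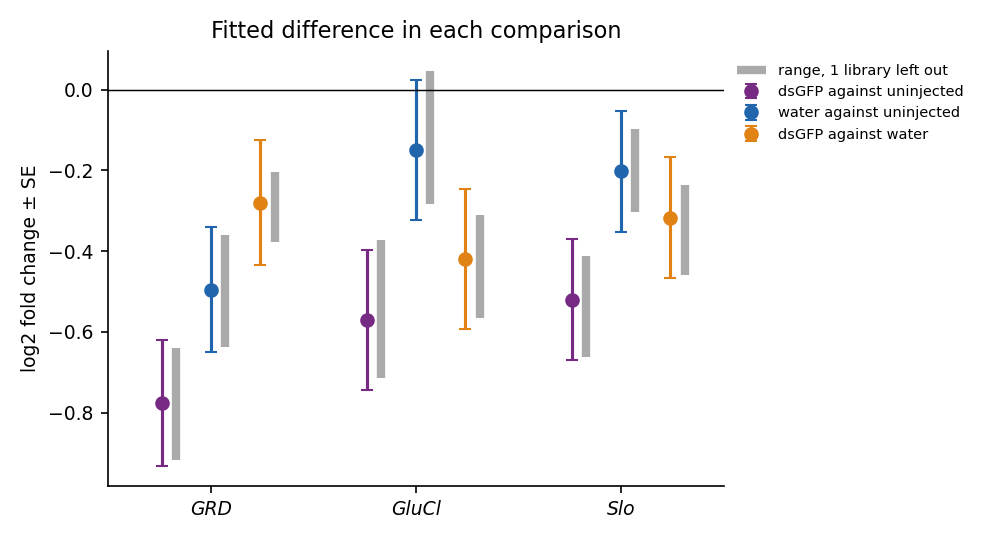
Fitted log2 fold change (vertical axis) with its SE for GRD, GluCl and Slo in the 3 comparisons, each named with its upper group first. Grey bars give the lowest and highest value when 1 of the 9 libraries is left out, which for GluCl with water against uninjected runs from -0.28 to 0.05.

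GRD had 400 to 1263 counts per library, GluCl 678 to 2020 and Slo 823 to 2232, which gives a counting error of at most 5.00%, 3.84% and 3.49% of a library's value. The replicate SD within groups was 12% of the mean for GRD, 17.7% for GluCl and 16.4% for Slo with dsGFP. It was 6.53%, 7.45% and 11.6% with water, where the pools were closest together and the GRD counting error was 3.95 to 4.12%, and 20%, 23.6% and 15% uninjected. Across groups the within-group SD of log2 CPM was 0.21 for GRD, 0.24 for GluCl and 0.21 for Slo, and 56.8%, 68.1% and 57.2% of tested genes had a smaller one.

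Over the 9 libraries log2 CPM correlated at r = 0.84 (Spearman 0.78) between GRD and GluCl, at r = 0.89 (0.85) between GRD and Slo and at r = 0.90 (0.73) between GluCl and Slo. These are descriptions over libraries that share their scaling, and they include the group differences. With group means removed, r was 0.76, 0.77 and 0.76 for those pairs. Without the 2 libraries farthest from the GRD or GluCl median, uninjected 2 and dsGFP 1, r was 0.51, 0.73 and 0.72. Many genes were closer to a channel than its partner was: 636 genes correlated more highly with GRD than GluCl did, 363 more highly with GRD than Slo did and 277 more highly with GluCl than Slo did. Within the dsGFP group dsGFP 1 was the lowest and dsGFP 3 the highest library for each of the 3 genes, and water 2 and uninjected 2 were the highest of their groups for each.

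Other neuronal genes give the setting for these levels. The list held 20 genes found by symbol: 16 other cys-loop subunits, the voltage-gated sodium channel Para, the dopamine receptor Dop2, the synaptic vesicle calcium sensor Syt1 and the transcription factor pros. Of these, 19 passed the filter on low counts, and the acetylcholine receptor subunit nAChRa10 did not, at 0.0967 CPM with dsGFP and 0.192 CPM uninjected. Most wasp genes are named only by a locus number, so markers such as elav, brp and the glial gene repo were not matched, and no glial marker was.

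Between dsGFP and uninjected pools edgeR's quasi-likelihood test called 0 of these 19 genes, beside 4.55% of all tested genes, of which 4.11% were lower and 0.437% higher with dsGFP. Of the 19, 8 had an unadjusted p under 0.05, as had 2176 of all 11665 genes tested. DESeq2 called 1 of the 19, nAChRa4, and 932 genes in all, and limma-voom called 0 of the 19 and 489 in all. Their log2 fold changes were below 0 for 16 of 19, with a median of -0.35, where 48.8% of all tested genes were below 0 and the median was 0.01. Between water and uninjected pools 15 of 19 were below 0 (median -0.09) beside 49.4% of all genes. EdgeR called 0 of 19 there and 0.00857% of all genes (1 gene, higher with water), with 0 of 19 and 662 of 11665 at an unadjusted p under 0.05. Between dsGFP and water 16 of 19 were below 0 (median -0.25) beside 48.1% of all genes. EdgeR called 0 of 19 and 0 of all genes there, with 1 of 19 and 710 of 11665 at an unadjusted p under 0.05. A tilt below 0 was not particular to this list. Of 64 respiratory chain genes, 62 were below 0 between dsGFP and uninjected pools (median -0.15) and 2 above. The number below 0 was 48 of 64 between water and uninjected pools and 56 of 64 between dsGFP and water.

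Among the other cys-loop subunits, the acetylcholine receptor subunit nAChRa4 had 6.41 ± 1.90 CPM with dsGFP and 10.2 ± 1.72 CPM uninjected (SD, n = 3 each; log2 fold change -0.67, SE 0.21, edgeR adjusted p = 0.111). Among the edgeR fits it passed only without dsGFP 3 (edgeR adjusted p = 0.0286). Its relative nAChRa1 had 17.7 CPM with dsGFP and 24.7 CPM uninjected (edgeR adjusted p = 0.168). pHCl, named after the pH-sensitive chloride channel of *Drosophila*, had 4.75 and 6.98 CPM in dsGFP and uninjected pools (edgeR adjusted p = 0.163). nAChRa3 had 9.73 CPM with dsGFP and 12.6 CPM uninjected (edgeR adjusted p = 0.238).

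LCCH3, the partner of GRD in *Drosophila*, had 5.56 ± 0.503 CPM with dsGFP, 6.85 ± 0.827 CPM with water and 7.07 ± 1.75 CPM uninjected (SD, n = 3 each). Its log2 fold change for water against uninjected was -0.05 (SE 0.19), and for dsGFP against uninjected it was -0.35 (SE 0.19), with an edgeR adjusted p of 0.350. The GRD value for water against uninjected was -0.50 (SE 0.15), and the difference between the 2 genes was not tested.

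Outside the cys-loop family, Para had 23.7 ± 3.85 CPM with dsGFP and 34.3 ± 7.61 CPM uninjected (SD, n = 3 each; log2 fold change -0.53, SE 0.17, edgeR adjusted p = 0.112). Among the edgeR fits it passed only without uninjected 1 (edgeR adjusted p = 0.0494). Dop2 had 0.599 CPM with dsGFP and 0.970 CPM uninjected (edgeR adjusted p = 0.185). Syt1 had 41.4 CPM with dsGFP and 53.5 CPM uninjected (edgeR adjusted p = 0.239). The neural transcription factor pros had 109.7 and 110.7 CPM in dsGFP and uninjected pools (edgeR adjusted p = 0.973).

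**Figure D3:**
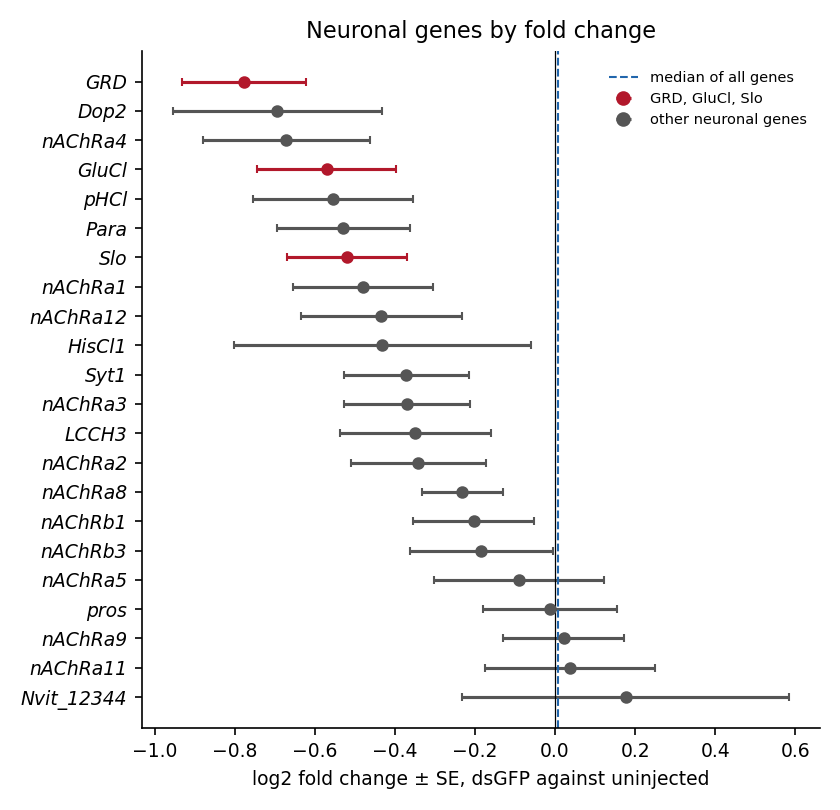
Log2 fold change of dsGFP against uninjected pools with its SE (horizontal axis) for GRD, GluCl and Slo in red and 19 other neuronal genes in grey (vertical axis, in order of value). GRD has the lowest value of the 22 genes at -0.78, GluCl is the fourth lowest at -0.57 and Slo lies at -0.52 beside Para at -0.53; the dashed line is the median of all tested genes.

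The 3 channels were also set against these 19 genes. A level relative to the list, chosen after the values were seen, was taken as a gene's log2 CPM minus the mean log2 CPM of the 19 genes in the same library; it does not depend on library scaling. These values restate the levels that chose the channels, and no difference between channels was tested on this scale. GRD was at 1.02, 1.02 and 1.06 in dsGFP pools 1 to 3, at 1.17, 1.10 and 1.07 in water pools 1 to 3 and at 1.29, 1.53 and 1.69 in uninjected pools 1 to 3. On this scale every uninjected pool lay above every injected pool, and GRD relative to the list was 0.39 lower in water than in uninjected pools. The pools dsGFP 3, at 1.06, and water 3, at 1.07, were nearly level, so no separation of dsGFP from water is read from them. How many of all genes would separate on this scale was not counted. Uninjected 1 alone, at 1.29, was above all 6 injected pools, of which the highest was at 1.17.

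GluCl relative to the list averaged 1.81 ± 0.10 with dsGFP, 2.04 ± 0.03 with water and 2.09 ± 0.11 uninjected (SD, n = 3 each). The dsGFP pools, at 1.73 to 1.92, were below the water pools, at 2.01 to 2.08, and below the uninjected pools, at 1.98 to 2.21. Slo relative to the list averaged 2.15 ± 0.10 with dsGFP, 2.27 ± 0.16 with water and 2.38 ± 0.13 uninjected (SD, n = 3 each). Its dsGFP pools, at 2.06 to 2.25, overlapped the water pools, at 2.08 to 2.38, and lay just below the uninjected pools, at 2.27 to 2.52.

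**Figure D4:**
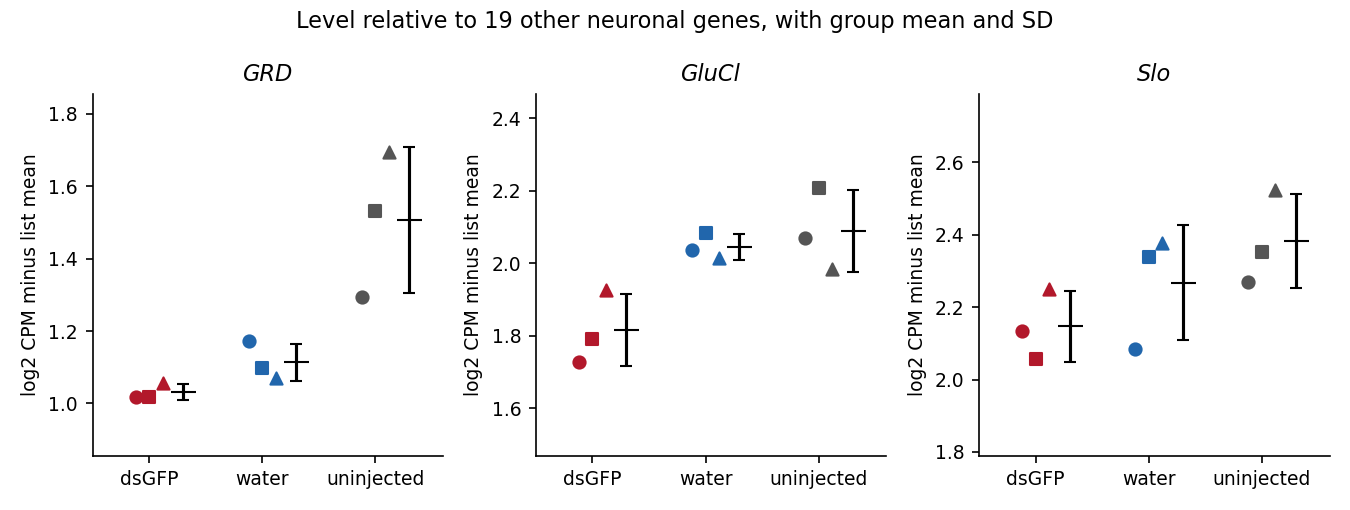
Log2 CPM of GRD, GluCl and Slo minus the mean log2 CPM of 19 other neuronal genes in the same library (vertical axis) by group (horizontal axis), with one symbol shape per replicate number and the group mean ± SD in black (n = 3). GRD runs from 1.02 to 1.06 with dsGFP, from 1.07 to 1.17 with water and from 1.29 to 1.69 uninjected. The pools dsGFP 3 and water 3 are nearly level. Each panel spans 1 unit.

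GluCl followed the other neuronal genes more closely than GRD did. Over the 9 libraries the log2 CPM of GluCl and the mean of the 19 genes correlated at r = 0.99 (Spearman 0.92), and with group means removed r was 0.996. For GRD the same values were r = 0.84 (0.78) and 0.81, and for Slo r = 0.88 (0.63) and 0.77. Without uninjected 2 and dsGFP 1, the libraries farthest from the list's median, r was 0.97 for GluCl, 0.69 for Slo and 0.45 for GRD. For GRD the relation thus rested largely on those 2 libraries. These correlations are descriptions, and the differences between them were not tested.

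The named genes most like each channel over the 9 libraries, among 596 genes with a symbol, also differed. For GRD they were the muscle Z-disc gene Zasp66 (r = 0.96), CYP314A1, whose product makes the active moulting hormone (r = 0.95), the P450 gene CYP4AB21 (r = 0.94) and the dynein light chain gene TctexA (r = 0.93). Zasp66 had 7.24 ± 1.39 CPM with dsGFP, 8.86 ± 1.15 CPM with water and 19.3 ± 6.63 CPM uninjected, and CYP314A1 had 28.4 ± 3.81, 37.5 ± 6.68 and 77.3 ± 32.7 CPM in the same order (SD, n = 3 each). With group means removed, r was 0.85 for Zasp66, 0.81 for CYP314A1, 0.78 for CYP4AB21 and 0.68 for TctexA.

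For GluCl all 4 most alike named genes were on the neuronal list: nAChRa1 (r = 0.98), Syt1 (r = 0.97) and nAChRa2 and Para (r = 0.96 each). With group means removed they stayed at r = 0.96, 0.96, 0.98 and 0.92. For Slo they were pHCl and the odorant receptor Or266 (r = 0.94 each), Para (r = 0.94) and the cuticular protein gene CPR47 (r = 0.92). Their values with group means removed were 0.87 for pHCl, 0.85 for Or266, 0.85 for Para and 0.78 for CPR47. Counting genes known only by a locus number, 22 genes were more like GRD than Zasp66 was, 12 more like GluCl than nAChRa1 and 48 more like Slo than pHCl.

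Marker genes of other tissues gave the following values. The 3 muscle genes matched, Zasp66, Tm1 and Tm2, were detected in all 9 libraries and summed to 853 to 918 CPM with dsGFP, 779 to 931 CPM with water and 772 to 883 CPM uninjected, mostly from the tropomyosin gene Tm1. Their mean log2 CPM was 5.38 to 5.90 with dsGFP, 5.89 to 6.12 with water and 6.29 to 6.55 uninjected. EdgeR called 1 of the 3 lower with dsGFP than uninjected and 0 higher: Zasp66, at a log2 fold change of -1.41 (SE 0.24, edgeR adjusted p = 0.0111), while Tm2 was at -1.13 (SE 0.33, edgeR adjusted p = 0.121) and Tm1 at 0.17 (SE 0.13, edgeR adjusted p = 0.514). Over the 9 libraries the muscle mean correlated with GRD at r = 0.92, with Slo at r = 0.87 and with GluCl at r = 0.74, and with group means removed at r = 0.59, 0.67 and 0.40. Of 49 cuticle and epidermis genes, 40 to 47 were detected per library, and their summed level was 5712 to 40065 CPM with dsGFP, 2022 to 23204 CPM with water and 581 to 12758 CPM uninjected. Their mean log2 CPM correlated at r = -0.60 with Slo, -0.47 with GRD and -0.27 with GluCl. With group means removed these values were -0.54, -0.32 and 0.005. The 64 respiratory chain genes, all detected, summed to 7916 to 8545, 8382 to 8838 and 8690 to 9918 CPM in dsGFP, water and uninjected pools. Their mean correlated at r = 0.60 with Slo, 0.52 with GRD and 0.24 with GluCl, and with group means removed at 0.28, 0.06 and -0.35. The antenna list held odorant (Or) and gustatory (Gr) receptor genes. The mean of its 86 kept genes correlated at r = 0.71 with Slo, 0.61 with GRD and 0.51 with GluCl. With group means removed it correlated at 0.29, 0.02 and -0.18. Between dsGFP and uninjected pools edgeR called 3 of 37 kept cuticle genes lower (CPR47, CPR44 and CPR22). It called 2 of 64 respiratory chain genes lower (Cox7a1 and Cox6c) and 2 of 86 kept antenna list genes lower (Or140 and Or41). It called 0 of these lists' genes higher, beside 4.11% of all tested genes called lower and 0.437% called higher. Most of the 37 kept cuticle genes went the other way from the 3 called: 26 had a log2 fold change above 0 (median 0.75) and 11 below. The part of these tissues in the levels of GRD, GluCl and Slo was not tested.

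The neighbourhood of GRD adds a limit and an observation. In the RefSeq table the protein-coding gene LOC103316131, which has no other name, lies within GRD. For GRD the 2 strand-specific columns summed to 5.25 to 9.43% more read pairs than the unstranded column, where pairs that touch 2 genes are left uncounted. The excess was at most 0.167% for GluCl and 1.75% for Slo, and it was 24.1 to 53.2% for LOC103316131. The summed strand columns were an alternative chosen after seeing the data. With them the GRD log2 fold change for dsGFP against uninjected was -0.78 (SE 0.16), as in the unstranded counts. This sum adds back pairs that touch 2 genes, so it cannot separate GRD from LOC103316131.

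LOC103316131 had 86, 83 and 94 counts in dsGFP pools 1 to 3, 140, 131 and 123 counts in water pools 1 to 3 and 173, 320 and 233 counts in uninjected pools 1 to 3. Its level fell to 2.63 ± 0.112 CPM with dsGFP, against 5.46 ± 1.34 CPM uninjected (SD, n = 3 each), with a log2 fold change of -1.05 (SE 0.20) and an edgeR adjusted p of 0.0135. With water it stood at 3.55 ± 0.415 CPM (SD, n = 3). The gene was picked after its values were seen and lies within GRD, so this p is no support for the step seen in GRD. It did not pass without dsGFP 1 (edgeR adjusted p = 0.0613) or without dsGFP 2 (edgeR adjusted p = 0.0552). Its counts were 0.174 to 0.208 of those of GRD with dsGFP, 0.204 to 0.235 with water and 0.206 to 0.253 uninjected. The libraries carry no strand, so read pairs that touch both GRD and LOC103316131 cannot be assigned and are left uncounted. A pair counted for either gene was placed by position alone, so their values are not taken as 2 separate observations.

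**Figure D5:**
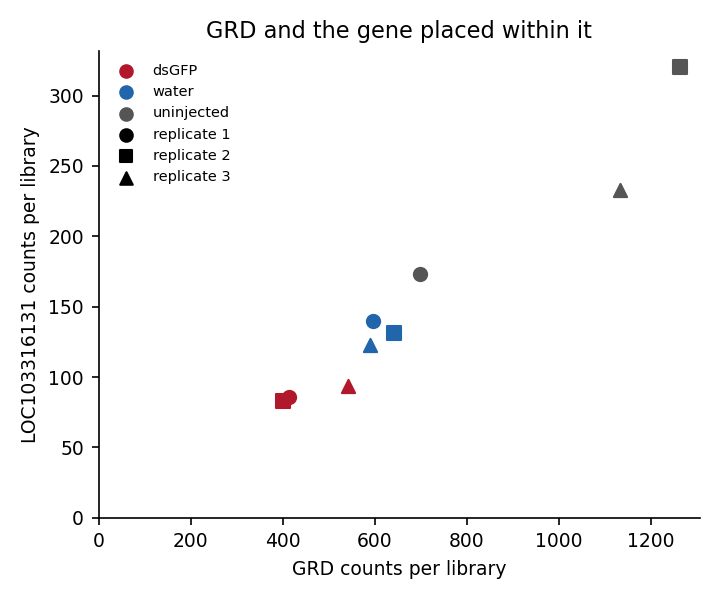
Counts of LOC103316131 (vertical axis) against counts of GRD (horizontal axis) in each of the 9 libraries, coloured by group, with one symbol shape per replicate number. The dsGFP libraries lie lowest, at 83 to 94 and 400 to 541 counts, and uninjected 2 highest, at 320 and 1263 counts; counts are not scaled for depth.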

How the data were processed

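Poly(A) RNA of whole male pupae was read in pairs of 150 bp, per the labels' protocols. For each library the authors deposited raw, unnormalised gene counts as STAR writes them, a tool whose version 2.6.1b stands in the submitters' processing notes. Neither coordinates nor sequences are shown, as the build the counts rest on was not given. The first strand column held 49.95 to 50.13% of strand-specific counts, so the unstranded column was used.

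Of 15430 rows, 12 that held a fragment of a description were left out (0.0518 to 0.0608% of counts). Genes were kept by filterByExpr (minimum count 10, minimum total 15), scaled by TMM and tested in a single fit of 9 libraries with edgeR 4.0.16 (glmQLFit, robust; R 4.3.3), with Benjamini-Hochberg adjusted p under 0.05 as the call. Log2 CPM used a prior count of 2. SE is the fold change divided by the root of F. Counting error is 1 over the root of the count. The fit was tested on simulated data. Alternatives were DESeq2 1.42.0, limma-voom 3.58.1, other scalings and filters, a replicate block and libraries left out.

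The genes and lists were chosen with earlier results of these data known. Named genes are the 3 channels, up to 4 genes of each neuronal list by smallest p for dsGFP against uninjected, and the 4 genes with a symbol most like each channel by Pearson correlation. Lists were matched by symbol or synonym; Nvit_12344 was matched by its number. The fat body and storage (3 genes), photoreceptor (1) and antenna (260) lists were also computed. Of these, Hex70b carried most of the storage sum (2037 to 3089 CPM with dsGFP, 2472 to 4232 CPM with water and 3266 to 4451 CPM uninjected). The 3 storage genes did not share a direction. For dsGFP against uninjected Hex70b had a log2 fold change of -0.66 (SE 0.23), Hex83 0.63 (SE 0.37) and Hex109 0.85 (SE 0.35), and edgeR called 0 of them. Lop1 stood at 1.90 to 2.68, 2.27 to 3.28 and 1.47 to 3.15 CPM in dsGFP, water and uninjected pools. The antenna list, of odorant (Or) and gustatory (Gr) receptor genes, summed to 261 to 272, 264 to 268 and 260 to 268 CPM. Of this the gustatory receptor gene Gr58 alone gave 146 to 161, 145 to 152 and 132 to 150.3 CPM. Of the 260, 175 to 202, 203 to 205 and 211 to 220 were detected, meaning any count at all. That number rises with depth, and every uninjected library was deeper than every injected one. The mean log2 CPM of the 86 kept was -0.65 to -0.37, -0.33 to -0.20 and -0.28 to -0.14. Between dsGFP and uninjected pools 57 of the 86 had a log2 fold change below 0, beside 48.8% of all tested genes. Dsx and Fru, the sex genes matched, summed to 205 to 257, 219 to 281 and 192 to 274 CPM.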

Additional observations from a re-analysis of the deposited data

How the results depend on the processing

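Across 19 alternatives, 169 of the 171 recomputed fold changes of GRD, GluCl and Slo moved by less than the replicate SD, and 170 were below 0. That SD, 0.21 to 0.24, is as large as or larger than the water against uninjected differences of GluCl (-0.15) and Slo (-0.20), so for these it is no sign of stability. Those that moved were GRD with uninjected 2 and 3 both left out (-0.46 for dsGFP and -0.18 for water, each against uninjected). With 1 library left out, dsGFP against uninjected ran from -0.92 to -0.64 for GRD, -0.71 to -0.37 for GluCl and -0.66 to -0.41 for Slo. The counts of called genes moved more. For dsGFP against uninjected edgeR called 531 genes and DESeq2 932. EdgeR called 255 with only the 2 groups compared, 134 to 681 with 1 library left out, 5 with uninjected 2 and 3 left out and 0 without dsGFP 1, water 3 and uninjected 3; the cause was not tested. For water against uninjected edgeR called 1 gene and DESeq2 45. It called 1 to 7 with 1 library left out, 9 with uninjected 2 and 3 left out and 0 without dsGFP 1, water 3 and uninjected 3. For dsGFP against water edgeR called 0, with 710 at an unadjusted p under 0.05, and DESeq2 called 6. Of the 19 other neuronal genes, DESeq2 called 1, and edgeR called 0 to 1 with 1 library left out. LOC103316131 had an adjusted p of 2.2e-04 to 0.267 over the alternatives.

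No pairing of the libraries by replicate number was found, which does not show that there was none. Same-numbered libraries had deviations from their group means that correlated at -0.33 to 0.43, above 0.1 in 2 of 9 pairs, and 1 of 9 libraries correlated best with its own number. With the replicate block edgeR called 539 genes for dsGFP against uninjected, and GRD was at -0.77, GluCl at -0.56 and Slo at -0.52. The counting error of a channel was 2.12 to 5.00% of its level per library.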

Other observations

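The ratio of counts between channels does not depend on library scaling. These ratios restate the counts that chose the channels. How many other gene pairs would separate in this way was not counted, so nothing is read from the ranges. GRD to Slo was 0.437 to 0.486 in dsGFP pools, 0.403 to 0.530 in water pools and 0.508 to 0.566 in uninjected pools, so the dsGFP pools lay below the uninjected pools and the water pools overlapped both. GRD to GluCl was 0.547 to 0.611 with dsGFP, 0.504 to 0.548 with water and 0.583 to 0.817 uninjected. Here the water pools lay below the uninjected pools and overlapped the dsGFP pools narrowly, and the largest ratio belonged to uninjected 3. GluCl to Slo overlapped in all groups, at 0.754 to 0.832 with dsGFP, 0.777 to 0.967 with water and 0.688 to 0.905 uninjected.

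Genes that the RefSeq table places across the other channels did not pass edgeR's test between dsGFP and uninjected pools. LOC107981432, which overlaps GluCl, had 12.5 ± 3.41 CPM with dsGFP, 15.3 ± 1.32 CPM with water and 15.8 ± 3.20 CPM uninjected (SD, n = 3 each; edgeR adjusted p = 0.413). Of 11 genes placed within or across Slo, 2 passed the filter on low counts. LOC100122199 had 7.20 CPM with dsGFP and 5.45 CPM uninjected, and LOC116417913 had 6.46 CPM with dsGFP and 9.16 CPM uninjected (edgeR adjusted p = 0.364 and 0.248).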
